A study of Rattus norvegicus with 2 samples.

Results

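The insulin-like growth factor (IGF) system was followed through 10 rat genes: the ligands Igf1 and Igf2, the receptors Igf1r, Igf2r and Insr, and the binding proteins Igfbp2, Igfbp3, Igfbp4, Igfbp5 and Igfbp6. They were taken from a list of names and found by matching the RefSeq accession of each array probe to a rat gene symbol. All 10 had a probe, out of 15443 named genes with one. The cells were neural precursor cells from the cortex of SD rat embryos at day 14, grown in N2 medium with bFGF at 10 ng/mL, a mitogen for such cells. They were transiently transfected with 4 µg of MSCV-IRES-EGFP, the empty vector, or of rBcl-2-MSCV-IRES-EGFP, which also carries rat Bcl-2, a protein that blocks cell death at mitochondria. Total RNA was labelled with 2 dyes and hybridised to 2 Agilent arrays, 1 per comparison and with 0 dye swaps. On the withdrawal array, red (Cy5) was labelled as vector cells moved for 2 days to NB medium without bFGF. On the Bcl-2 array, red was labelled as Bcl-2 cells with bFGF. Green (Cy3) of both arrays was labelled as vector cells with bFGF, so all groups were transfected and all share the EGFP vector. The share of transfected cells is not given in the sources used here.

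IGF1 and IGF2 are small secreted proteins related to insulin. They act mainly through the tyrosine kinase receptor IGF1R and through the insulin receptor, which feed the PI3K and AKT pathway and support survival and growth of neural precursors. IGF binding proteins hold the ligands outside the cell and can withhold or deliver them, while IGF2R carries IGF2 to lysosomes and does not signal as a kinase. The N2 supplement contains insulin, and the labels do not say what was added to the NB medium. The loss of bFGF and the change of medium cannot be told apart here.

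Promoters are shown for 4 members. Igfbp3 was the member farthest from a ratio of 1 on both arrays in the values reported, which on the withdrawal array depended on the processing. Igfbp2 and Igfbp5 lie next to each other on chromosome 9 with 0 genes between them in RefSeq. The product of Insr receives insulin. Each run holds 250 bases before to 50 after the gene start, 5′ to 3′ on the gene's strand, from RefSeq with build GRCr8. Capitals mark exact matches, on either strand, to TATAAA, the core promoter box; to GGGCGG, the GC box; to CACGTG, the E-box; or to GTAAACA, the forkhead core. No 2 of these matches overlap in the runs shown.
Igfbp3 (chr14:86277895-86278194, minus strand): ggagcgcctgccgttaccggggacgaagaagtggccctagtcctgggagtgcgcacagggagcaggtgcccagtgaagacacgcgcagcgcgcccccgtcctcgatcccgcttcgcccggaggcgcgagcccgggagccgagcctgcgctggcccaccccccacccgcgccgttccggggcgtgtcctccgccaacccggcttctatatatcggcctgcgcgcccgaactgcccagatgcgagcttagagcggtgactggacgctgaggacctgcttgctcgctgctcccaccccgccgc
Igfbp2 (chr9:81864561-81864860, plus strand): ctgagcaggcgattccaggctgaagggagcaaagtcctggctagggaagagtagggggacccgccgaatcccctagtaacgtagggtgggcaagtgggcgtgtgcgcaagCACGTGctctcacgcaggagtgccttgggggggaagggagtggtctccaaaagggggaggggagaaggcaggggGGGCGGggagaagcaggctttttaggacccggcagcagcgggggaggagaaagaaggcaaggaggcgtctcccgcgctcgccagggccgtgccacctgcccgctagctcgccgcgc
Igfbp5 (chr9:81914138-81914437, minus strand): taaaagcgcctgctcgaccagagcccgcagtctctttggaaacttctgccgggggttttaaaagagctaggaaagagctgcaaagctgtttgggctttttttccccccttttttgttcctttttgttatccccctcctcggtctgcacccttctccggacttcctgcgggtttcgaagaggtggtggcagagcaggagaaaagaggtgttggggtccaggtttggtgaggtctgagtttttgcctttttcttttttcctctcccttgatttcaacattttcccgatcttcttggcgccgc
Insr (chr12:6128754-6129053, minus strand): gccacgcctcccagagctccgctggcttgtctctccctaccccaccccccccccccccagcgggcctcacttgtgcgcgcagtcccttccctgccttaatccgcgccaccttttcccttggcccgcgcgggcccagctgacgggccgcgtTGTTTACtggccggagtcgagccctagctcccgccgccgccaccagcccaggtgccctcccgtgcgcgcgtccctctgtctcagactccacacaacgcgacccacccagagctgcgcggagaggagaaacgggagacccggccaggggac
Igfbp3 and Igfbp5 held 0 matches to these letters. Igfbp2 held 1 GC box and 1 E-box, and Insr 1 forkhead core. Of the 11 promoters held for the 10 members (Igf2 has 2), 5 held the GC box, 3 the E-box, 2 the forkhead core and 1 the core promoter box. Among all 33469 promoters of this length, 33.1% held the GC box, 6.42% the E-box, 3.78% the forkhead core and 14.2% the core promoter box. The promoters of Igfbp3 and Insr were 71.7% and 71.3% G and C with 36 and 28 CpG pairs, against 50.7% with 11 pairs for Igfbp5 and medians of 51.7% and 7 over all promoters. A match describes these letters and is no evidence that a factor binds there.

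There were no replicates, so no test was possible and every value describes these 2 arrays. Values are log2 ratios of red over green after normexp background correction and loess, and a gene is called at least 2-fold where its log2 ratio is at least 1 in size and all its probes have the same sign. Median net signals ranged from 189 to 284.5 scanner units over the 4 channels, and between 66.1% and 72.0% of gene spots were well above background. Which way the ratios run is not settled. The log2 ratios of the 2 arrays, which have the same dye orientation and a control of the same label, correlated at r = -0.67 over 42877 gene spots (-0.15 with the processed signals of Feature Extraction, the scanner's own software). Values below are as labelled, and with the sign of an array turned, higher becomes lower for every gene on it. The Bcl2 probe, the check of the label, was at 0.39 on the withdrawal array and at -0.02 on the Bcl-2 array. Whether it lies in the transfected sequence is not known here. Per the file headers both arrays lay on 1 slide and were read in 1 scan. Markers of the labelled cell type, neural precursors, were present: of 11 with a probe, among them Nes, Sox2 and Pax6, 0 were dim in every channel. Presence was not particular to them, since 10852 of the 15443 named genes were measured on the withdrawal array. Dim in every channel were 1 of 11 astrocyte, 1 of 8 neuron and 1 of 10 oligodendrocyte lineage markers, but 6 of 9 for choroid plexus.

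Igfbp3 stood out from the other 9 members. Its level was lower in the channel labelled Bcl-2 with bFGF and higher in the channel labelled without bFGF, each against its green channel. IGFBP3 is the main IGF carrier in blood. On the withdrawal array its probe read 19237 in red, the channel without bFGF, and 5858 in green, in net scanner units. On the Bcl-2 array it read 8635 in red and 9908 in green. The median net signal was higher in red than in green on both arrays, so the dyes are compared on normalized values. On the normalized log2 scale the levels were 12.91 in green and 13.78 in red of the withdrawal array, and 13.98 in green and 12.46 in red of the Bcl-2 array. The withdrawal red and the Bcl-2 array's green were the high channels, and the withdrawal green and the Bcl-2 red were the low ones.

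The log2 ratio of Igfbp3 was 0.87 on the withdrawal array, a 1.83-fold higher level in red (-0.87 with the sign turned). It ranked 380 from the top among 10852 genes. On the Bcl-2 array the ratio was -1.52, a 2.87-fold lower level in red (1.52 with the sign turned), and it ranked 56 from the bottom among 10241 genes. Both sizes were far above the spread of spots on 1 array, since the median SD between spots of a probe was 0.024 and 0.025 among the 100 replicated probes nearest in brightness. That SD covers no difference between cultures. In the authors' deposited columns the log10 ratios of this spot were 0.264 with an error of 0.066 and -0.452 with an error of 0.074.

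On the withdrawal array 0 of 10 members were at least 2-fold, where 2.89% of all genes were (2.42% higher and 0.470% lower). With the Feature Extraction ratio Igf1 and Igfbp5 passed, against 10.4% of all genes (8.17% higher, as Igfbp5, and 2.18% lower, as Igf1). Igfbp3 passed only with median centring in place of loess, at 1.18, and in the authors' deposited value table, where it was at 1.05. Of 9 measured members on the Bcl-2 array, 1, Igfbp3, was at least 2-fold lower, where 2.56% of all genes were at least 2-fold (2.00% lower and 0.557% higher). Of the genes past the limit there, 21.8% were higher, and 34.2% with the Feature Extraction ratio. Igfbp3 was the 1 member past that limit under each of the 7 alternatives as well, with log2 ratios from -1.65 to -1.47. The median over members was 0.15 on the withdrawal array (-0.15 with the sign turned) beside 0.031 over all genes, and -0.0040 on the Bcl-2 array (0.0040 turned) beside -0.013.

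**Figure D1:**
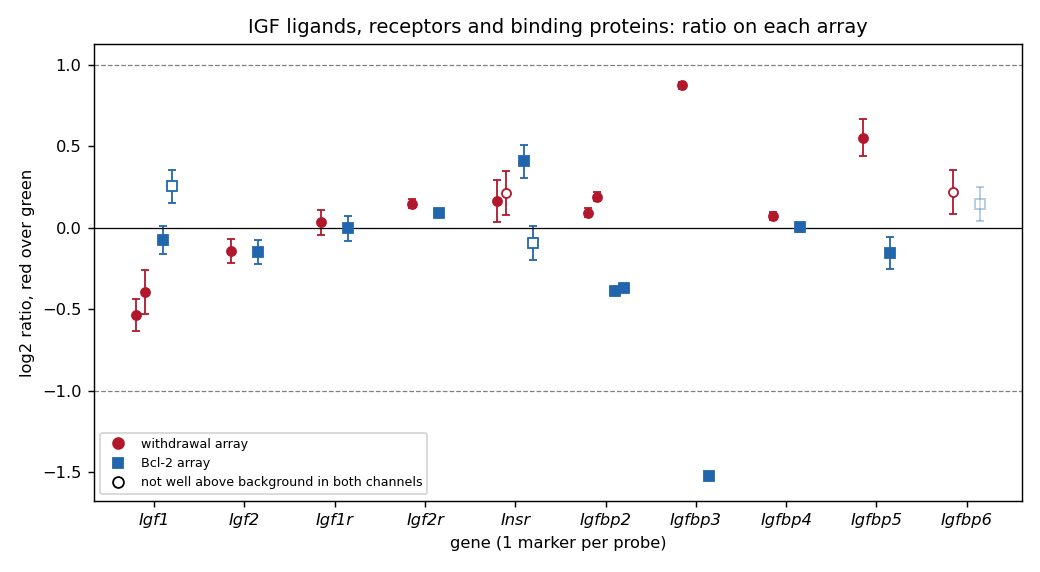
Log2 ratio of red over green for each probe of the 10 genes on the withdrawal array (circles) and the Bcl-2 array (squares). Bars are the SD between spots among probes of like brightness, open markers are probes not well above background in both channels, the pale marker was not measured, and dashed lines mark 2-fold; Igfbp3 lies at 0.87 and -1.52 while all other genes lie within the dashed lines.

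Igfbp2, a binding protein abundant in developing brain and cerebrospinal fluid, was well above background in all 4 channels. Listing green then red of the withdrawal array and green then red of the Bcl-2 array, an order kept from here on, its first probe read 23436, 48373, 26882.5 and 61012.5 net units. The second probe read 28786.5, 64746, 27234 and 62822. After normalization the probes had the same sign on each array. They lay at 0.09 and 0.19 on the withdrawal array and at -0.39 and -0.37 on the Bcl-2 array, which put the gene at 0.14 and -0.38. With the sign turned these are -0.14 and 0.38. The SD between spots of like probes was 0.026 and 0.023, and the Bcl-2 array value was above that spot SD. The deposited log10 ratios of the probes there were -0.123 and -0.131, with errors of 0.062 and 0.063. On the withdrawal array they were 0.018 and 0.044, below their errors of 0.061 and 0.062. The size of the Bcl-2 array value moved with the scaling, from -0.57 in the authors' deposited value table to -0.10 with median centring.

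Igfbp5, the neighbour of Igfbp2 in the genome, encodes a binding protein that also attaches to extracellular matrix. Its probe was dim, with net signals of 90.5, 134, 125.5 and 106. On the normalized log2 scale the levels were 7.02, 7.58, 7.44 and 7.28, so the withdrawal red and the Bcl-2 array's green were the high channels, as for Igfbp3, but the lowest was the withdrawal green. The ratios were 0.55 and -0.15 (-0.55 and 0.15 turned), with a spot SD of 0.114 and 0.099 for probes of like brightness. They depend on how a dim signal is corrected: Feature Extraction gave 1.05 and -0.68, while 1.23 and -0.83 came from the authors' deposited value table.

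Igfbp4, a binding protein known mainly as an inhibitor of IGF action, differed little between channels. Its probe read 3353, 6137, 2848.5 and 6808.5 net units. Normalized ratios were 0.07 and 0.0019, with spot SDs of 0.026 and 0.027. Igfbp6, which prefers IGF2 over IGF1, was near background, with net signals of 67, 23.5, 70.5 and 46. It was well above background only in the withdrawal red, and in neither channel of the Bcl-2 array. Its withdrawal ratio of 0.22 ran from -0.24 to 0.44 over the ways of processing, so its direction is not fixed.

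**Figure D2:**
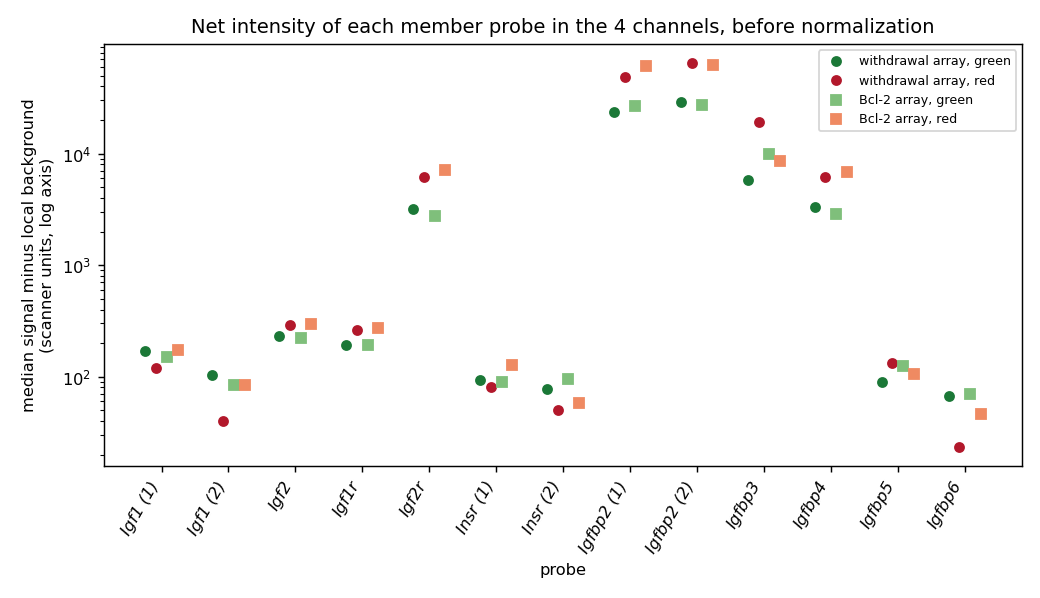
Median signal minus local background, in scanner units on a log axis, for each probe of the 10 genes in the 4 channels before normalization; genes with 2 probes are numbered. The red signal of Igfbp3 is the higher on the withdrawal array (19237 against 5858) and the lower on the Bcl-2 array (8635 against 9908), and so is that of Igfbp5 (134 against 90.5, and 106 against 125.5).

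Igf1, a ligand known for promoting survival, was read by a pair of probes to different transcripts. The first read 170, 119, 151 and 172 net units, and the second 103.5, 40, 84 and 84. The withdrawal red was the lowest channel of both probes. Both probes put Igf1 lower in the channel labelled without bFGF, at -0.54 and -0.39, and the gene at -0.47 (0.47 turned), a 1.38-fold difference with a spot SD of 0.114 among like probes. They disagreed in sign on the Bcl-2 array, at -0.07 and 0.25, the second not being well above background in green. The size of the withdrawal difference is uncertain, since Feature Extraction put it at -1.13. Igf2, the ligand expressed from the paternal allele in most fetal tissues, read 231, 290, 223.5 and 298.5 net units, nearly the same on both arrays. Its ratios were -0.14 and -0.15 (0.14 and 0.15 turned), about 2 spot SDs of 0.073 and 0.071, and the first was 0.047 with median centring in place of loess. With that setting the median of all genes was 0.17, and Igf2 lay at -0.12 relative to it.

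Of the receptor genes, Igf1r and Igf2r differed little between channels after normalization. Igf1r, the main signalling receptor of both IGFs, was printed in 10 spots of 1 probe, which gives the one spot spread measured on a member itself. Its net signals ranged over the spots from 161 to 223, from 203 to 334, from 158.5 to 229 and from 224 to 337.5. The log2 ratio was 0.033 ± 0.070 and -0.0040 ± 0.107 (SD between 10 spots). Both means were smaller in size than that SD, which is the spread of single spots and not the error of their mean. Igf2r read 3174, 6122, 2778.5 and 7074.5 net units. Its ratios were 0.15 and 0.09, above the spot SD of 0.026 and 0.027 and short of 2-fold. The value on the Bcl-2 array was -0.056 in the authors' deposited value table. There the median of all genes was -0.099, and Igf2r lay at 0.044 relative to it. The deposited log10 ratios of its spot, 0.052 and 0.027, were smaller than their deposited errors of 0.062 and 0.061.

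Insr, the insulin receptor gene, was read by a pair of dim probes. The first read 92.5, 81.5, 90 and 127.5 net units. The second read 77, 50.5, 96 and 58, and was well above background only in red on the first array and only in green on the other. The ratios were 0.16 and 0.21 on the withdrawal array. For the Bcl-2 array they disagreed in sign, at 0.41 and -0.09. The gene values of 0.19 and 0.16 therefore carry spot SDs of 0.134 and 0.103 and a disagreement between probes. They also depend on how a dim signal is corrected. Feature Extraction put the probes at -0.03 and 0.88 on the withdrawal array and at 1.08 and -0.42 on the Bcl-2 array. Over the ways of processing the gene's withdrawal value ran from -0.0015 to 0.60.

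**Figure D3:**
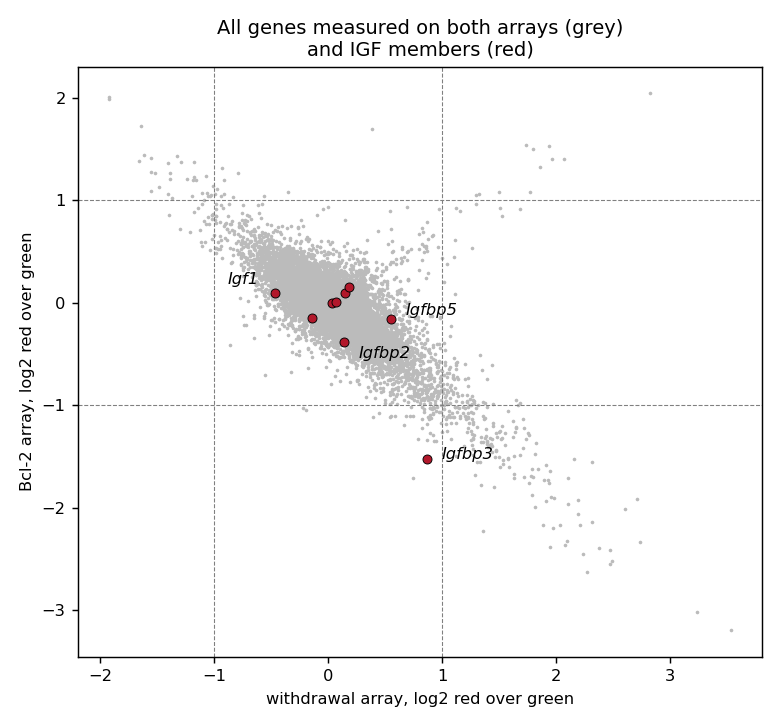
Log2 ratio of red over green on the withdrawal array (x) against the Bcl-2 array (y) for the 10162 genes measured on both (grey) and the 9 IGF members among them (red); dashed lines mark 2-fold. Igfbp3 lies at 0.87 and -1.52, away from the other members.

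The channels were also set against each other across the arrays after Aquantile scaling, which gives both arrays the same overall brightness. The red channels compare the RNAs labelled Bcl-2 with bFGF and vector without bFGF. Igfbp3 was the 1 of 10 members at least 2-fold different between them, 2.50-fold lower in the Bcl-2 red (log2 difference -1.32), where 2.44% of all genes differed so (2.08% lower and 0.360% higher). Among the other members the red channels differed by -0.30 for Igfbp5, 0.27 for Igf1, -0.12 for Igfbp6 and -0.10 for Igfbp2, and by less than 0.05 in size for the remaining 5. The green channels carry 1 label, yet Igfbp3 was 2.11-fold higher in green of the Bcl-2 array than in green of the withdrawal array (1.07), where 2.66% of all genes differed so (2.12% higher and 0.548% lower). Igfbp2 and Igfbp5 differed between the green channels by 0.42 and 0.41, and Igf1 by -0.28. For Igfbp2 the green difference was the larger in size, 0.42 against -0.10 in red. Its size rests on the normalization. Before it, net green went from 23436 on the withdrawal array to 26882.5 on the Bcl-2 array for the first probe. For the second probe it went from 28786.5 to 27234, the other way.

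Over all genes, channels of different label and dye were closer to each other than channels of the same dye. The SD of the log2 differences was 0.171 for red of the Bcl-2 array against green of the withdrawal array and 0.170 for the other crossed pair, beside 0.357 for red against red and 0.390 for green against green. Igfbp3 followed the same order. For it, green of the Bcl-2 array was 1.15-fold above red of the withdrawal array (0.20), and red of the Bcl-2 array was 1.36-fold below green of the withdrawal array (-0.45). The latter value ranked 90 from the lowest of 10162 genes. Over the other 9 members these cross differences lay between -0.26, for Igfbp6, and 0.30, for Insr, with Igfbp2 at 0.28 in green of the Bcl-2 array against red of the withdrawal array. In the authors' deposited value table the second column of Igfbp3 is 0.650 and the first 1.929, and over all probes the second equals the ratio of its own array multiplied by that of the withdrawal array. The dye direction of each array, and dye effects on single probes, cannot be told apart from the labelled groups with 1 array per comparison.

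Of the genes measured on both arrays, the 3 closest to Igfbp3 in the pair of log2 ratios were Comtd1 at 0.93 and -1.35, Tmem35a at 0.86 and -1.34, and Cx3cl1, a chemokine gene, at 0.95 and -1.35. Their distances from Igfbp3 were 0.18, 0.19 and 0.19 log2 units over 2 ratios, which is a likeness of 2 values alone.

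Genes around the members were described with lists of pathway genes. The imprinted list also holds the members Igf2 and Igf2r, and the FOXO list the member Insr. Over all genes, 2.89% were at least 2-fold on the withdrawal array and 2.56% on the Bcl-2 array. Of 14 measured genes of IGF binding and processing outside the 10 members, 1 was at least 2-fold on the withdrawal array and 0 on the Bcl-2 array, with medians of 0.16 and -0.13. The 1 was Ccn2, a matrix-associated growth factor gene, at least 2.06-fold higher in red and not well above background in green. Its ratio was -0.68 on the Bcl-2 array, where it was not well above background in red and at least 1.61-fold lower. Feature Extraction put it at 3.46 and -3.87. Igfbpl1, a binding protein-like gene named after its values were seen, was at 0.80 and -0.84.

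Insulin and IGF signal transduction genes lay on both sides of 0. Of 35 measured on the withdrawal array, 16 lay above and 19 below 0, with a median of -0.04 and a range from -1.11 to 0.61, and 1 was at least 2-fold lower: Sh2b2, an adaptor of the insulin receptor, at -1.11 (0.60 on the Bcl-2 array). Of 33 measured on the Bcl-2 array 0 were at least 2-fold, and the median was 0.04. The imprinted genes near or linked to Igf2 gave 0 of 12 at least 2-fold on either array, with medians of 0.15 and -0.03. Beside 2.89% and 2.56% of all genes on the withdrawal and Bcl-2 arrays, counts of 0 or 1 in lists this short say little.

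Genes known as targets of FOXO factors, which insulin and IGF signalling hold out of the nucleus, included 3 of 18 at least 2-fold higher on the withdrawal array and 3 of 17 at least 2-fold lower on the Bcl-2 array, where 2.42% and 2.00% of all genes were. Klf15, a transcription factor gene, was at 2.32 and -1.55. Ddit4, an inhibitor of mTOR signalling, was at 1.44 and -1.21. Txnip, which binds thioredoxin, was at 1.13 and -0.73, and Sesn3, a sestrin gene, at 0.82 and -1.22. Klf15 and Ddit4 passed the limit on both arrays, so the counts share genes, on arrays whose ratios run opposite (r = -0.67). The list was chosen with earlier results of these data known, so its counts are no test of it. The list also held genes with values on the other side of 0 on the withdrawal array, among them Irs2 at -0.16, Bcl6 at -0.26 and Trib1 at -0.27, named after their values were seen. Its medians were 0.23 and 0.019. Several of these genes answer to other signals too, and the list's name says nothing on which of them acted here.

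**Figure D4:**
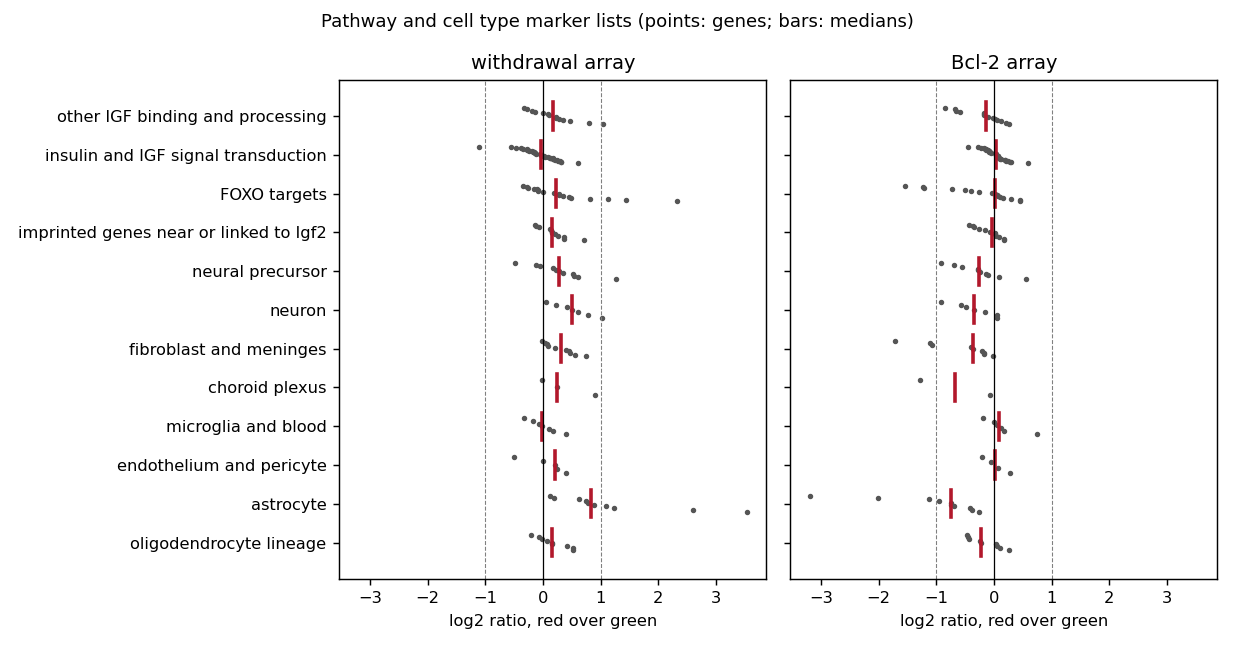
Log2 ratio of red over green of each measured gene (points) in 4 pathway lists and 8 cell type marker lists on the withdrawal array (left) and the Bcl-2 array (right); bars are list medians and dashed lines mark 2-fold. The insulin and IGF signal transduction list centres on -0.04 and 0.04, and the astrocyte list on 0.83 and -0.75.

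Markers of other cell types are given here beside Igfbp3. The fibroblast and meninges and the astrocyte medians had the signs of Igfbp3 on both arrays. So did those of neural precursors, the labelled cell type (0.28 and -0.26), neurons (0.50 and -0.34) and the oligodendrocyte lineage (0.16 and -0.23). The endothelium and pericyte list and the microglia and blood list did not. Of 12 fibroblast and meninges markers with a probe, 10 were measured on the withdrawal array, with a median of 0.31 and 0 at least 2-fold, and 9 on the Bcl-2 array, with a median of -0.37 and 3 at least 2-fold lower. The 3 were the collagen genes Col1a2 at -1.71, Col1a1 at -1.10 and Col3a1 at -1.08, which lay at 0.74, 0.55 and 0.45 on the withdrawal array. The collagen genes were well above background in both channels. On the Bcl-2 array Dcn, Foxc1 and Ogn (-0.18, -0.21 and -0.17), named after their values were seen, were so in green only. They passed the filter through the channel where they read higher, and they enter the list's median there. The summed normalized signal of this list was 6696 in green and 9373 in red of the withdrawal array, and 9029 in green and 4457 in red of the Bcl-2 array. The meningeal markers Aldh1a2 and Slc6a13 were not well above background in any channel. The astrocyte list was at 0.83 and -0.75 over 10 measured genes, 4 at least 2-fold higher (Apoe at 3.54, Aldh1l1 at 2.61, S100b at 1.22 and Clu at 1.097 on the log2 scale) and 3 lower (Apoe at -3.20, Aldh1l1 at -2.02 and Glul at -1.13), with summed signals of 19819 and 43328 on the withdrawal array and 43335 and 20281 on the Bcl-2 array, and Gfap was not well above background in any channel. Endothelium and pericyte markers had medians of 0.20 and 0.012, with 6 of 11 not well above background in any channel, Pecam1 and Cldn5 among them. The choroid plexus list had 6 of 9 in that state, with Ttr at 0.90 and, on the Bcl-2 array, at least 2.42-fold lower. Microglia and blood markers, a cell class known for Igf1, had medians of -0.02 and 0.09 over 7 and 6 measured genes. Of 13 with a probe, 6 were not well above background in any channel. The part of these cell types in the values of the IGF genes was not tested. Whether these cell types were present in the cultures was not tested either. In total RNA of a culture, fewer cells of a type and less RNA per cell cannot be told apart.

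**Figure D5:**
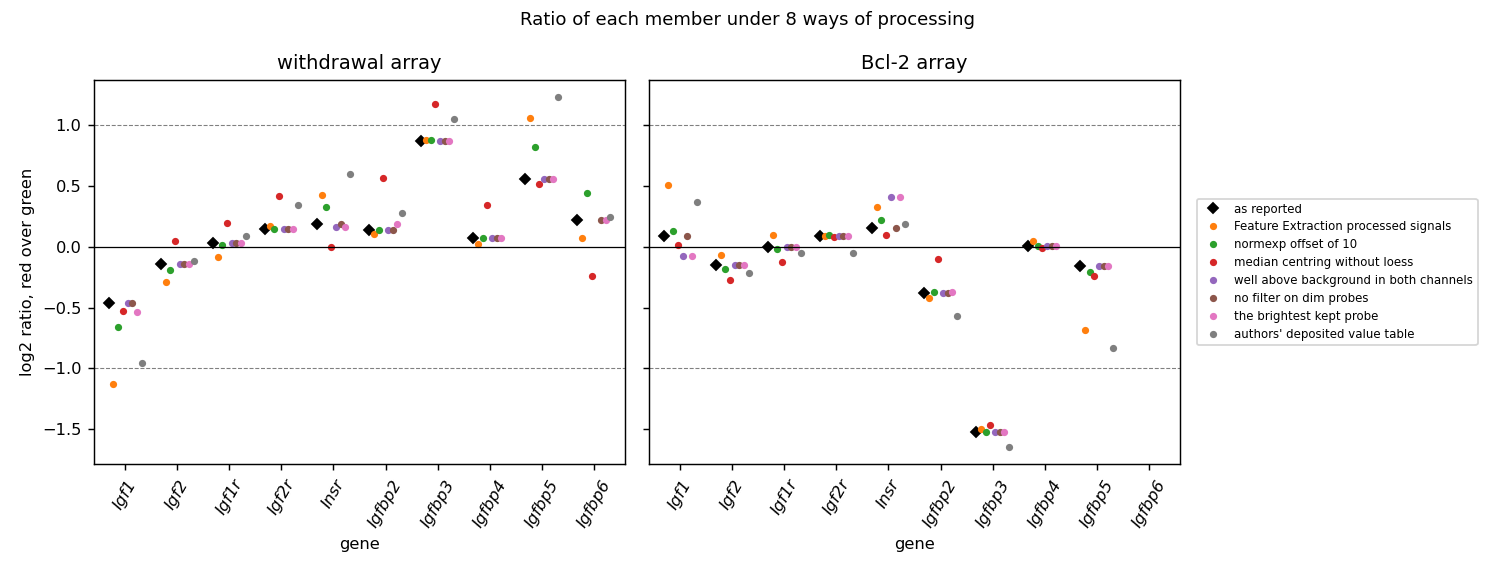
Log2 ratio of red over green of each IGF gene as reported (black diamonds) and under 7 alternative ways of processing (coloured points) on the withdrawal array (left) and the Bcl-2 array (right); dashed lines mark 2-fold, and Igfbp6 was not measured on the Bcl-2 array. Igfbp3 stays between 0.87 and 1.18 and between -1.65 and -1.47, while the dim genes Igf1 and Igfbp5 spread from -1.13 to -0.47 and from 0.51 to 1.23 on the withdrawal array.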

How the data were processed

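Per the file headers, the authors' scanner output (deposited as made) comes from Feature Extraction 11.5.1.1 with protocol GE2_1105_Oct12 and array design 028282 on build rn4, and holds spot and background intensity as pixel medians and a processed intensity. Version 8.5.1.1 of that software stands in the submitters' processing notes. The same deposited files hold a log10 ratio with its error, a p-value from the spot noise model (not used here) and flags of 0 or 1, counted here as other columns. A linear ratio per probe fills the authors' deposited value table, with scale, centring and direction unstated. Its first column (median 0.932) matched the withdrawal array's red over green, after a constant and within 0.05 on the log2 scale, for 100% of 28395 probes, and its second (median 0.944) matched the 2 arrays' ratios multiplied together for 100%, so the quotient served as the alternative for the Bcl-2 array.

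Median signals were corrected by normexp (offset 50) and loess (limma 3.58.1, R 4.3.3; weight 0 for controls), since the files hold no mean signals. Summaries used Python 3.11.15, numpy 2.4.6 and pandas 2.3.3. Of 42877 gene spots, 534 and 576 outlier spots were left out, and 0 were saturated. Repeat spots were averaged. Probes well above background in 1 channel or more were kept (20328 and 19026 of 30367). Lists therefore hold genes kept through 1 channel only, which can shift a list median toward that channel. Accessions matched RefSeq symbols (GRCr8, used for names, neighbours and promoters) for 60.4% of probes. A gene's value is the median of its kept probes. Where 1 channel is dim, an "at least" fold uses as its floor the array's lowest signal that is well above background, or the dim signal itself if that is higher, on loess and Aquantile values open to dye bias. The number of arrays limits the precision. Background correction and loess were tested on a simulated array of spots well above background, and judged on bright spots only. Dim spots were not judged, and the scaling between arrays and the gene summaries were not covered.

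The 10 members and the lists were chosen with earlier results of these data known. Named genes are the members, up to 6 genes a list that were at least 2-fold on either array, the 3 genes nearest Igfbp3 and Bcl2; exceptions are marked, and marker genes named for being present or dim (Nes, Sox2, Pax6, Gfap, Aldh1a2, Slc6a13, Pecam1 and Cldn5) were chosen after their values were seen. Of the neuron and oligodendrocyte lineage lists, also measured, the medians were 0.50 and 0.16 on the withdrawal array and -0.34 and -0.23 on the Bcl-2 array, and that of neural precursor markers was 0.28 and -0.26. Tubb3 of the first list was at 1.03 and -0.58, and Fabp7 of the last at 1.26 and -0.91.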

Additional observations from a re-analysis of the deposited data

Results flagged for a closer look

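As labelled, Igfbp3 was higher in red on the withdrawal array and lower in red on the Bcl-2 array, with log2 ratios of 0.87 and -1.52. The direction of the ratios is unsettled: with the sign of 1 array turned (-0.87 or 1.52) both ratios run the same way. As labelled, the difference of its log2 ratios, Bcl-2 array minus withdrawal array, was -2.40. Each comparison has 1 array, both are labelled with the same control, and the difference was not tested.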

How the results depend on the processing

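Igfbp3 kept its sign on both arrays, and its side of the 2-fold limit on the Bcl-2 array, under all 7 alternatives: Feature Extraction signals, normexp offset of 10, median centring, both channels above background, no filter, the brightest probe and the authors' deposited value table. On the withdrawal array the count of members at least 2-fold moved from 0 to 2 with Feature Extraction signals (Igf1 and Igfbp5), to 1 with median centring and to 2 in the value table (Igfbp3 and Igfbp5). All genes at least 2-fold numbered 314, 1124, 507 and 1277 in the same order, and 536 with the offset of 10. On the Bcl-2 array they numbered 262, and 1048 and 1105 with Feature Extraction and the value table. The median over members moved to 0.27 with median centring and 0.28 in the value table on the withdrawal array. On the Bcl-2 array it moved to -0.10 and -0.13 under these, and to -0.074 with both channels above background or the brightest probe. A move counts where it exceeds the pooled spot SD of 0.068 or 0.057. Median centring shifted the median of all genes on the withdrawal array from 0.031 to 0.17 and the value table to 0.16; relative to it, Igfbp3 lay at 0.84, 1.01 and 0.89. Without subtracting the median of all genes, between 0 and 3 members changed sign under an alternative on the withdrawal array. On the Bcl-2 array between 0 and 1 did. Red against red kept Igfbp3 as the 1 member at least 2-fold under its 4 alternatives, at -1.44 to -1.31, while all genes so different numbered 265, and 1040 with Feature Extraction signals. Igf1, Insr, Igfbp5 and Igfbp6 lie near background, which limits the size of their ratios. No paired analysis was possible because each comparison has 1 array.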
